A study of Mus musculus with 6 samples.

Results

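Transcription factors that answer to ligands, hormones, cytokines, nutrients and stress were described in the livers of 3 male mice. The members were all probes with a single gene symbol from the nuclear receptor, C/EBP, HNF, FOX A, O and P, KLF, STAT, IRF, ATF, CREB, FOS or JUN families, or named for Xbp1. Nr5a2 was left out. The choice used names only and no measured value. It gave 73 probes of 57 genes, among 9663 probes of 7151 genes with a single symbol on 16896 spots. Array A held 37 of the probes and array B 36. The HNF pattern matched 0 probes. The name patterns also caught 6 genes whose products are not factors of the family named: Nr2c2ap, Esrp1, Cebpzos, Atf7ip, Crebbp and Irf2bpl. These were kept and are counted as members throughout.

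The 3 mice were an ad libitum mouse killed at 17 days (1st age group, an age taken from its label, whose unit could not be checked elsewhere), an ad libitum mouse killed at 174 days (2nd age group) and a calorie-restricted mouse killed at 177 days (2nd age group). All were male, and strain and the degree of restriction were not given in the sources used here. Each liver was hybridised to both array kinds, so that every group was 1 mouse on 2 arrays that carry different spots. With a single animal in each group nothing could be tested, and every difference below is between these single animals.

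Median spot intensity, in arbitrary units, was 35.8 and 60.8 on the arrays of the 174-day mouse and 333 to 403 on those of the other mice, so that each comparison with the 174-day mouse involves the dimmest arrays. A spot-position correction, which removes median shifts shared by spots of the same stretch or place of an array, was run as an alternative. Corrected below refers to it. It can also shift values where no difference was measured. The 3 member probes set to the lowest allowed level in all 3 mice differed by 0 before it and by -0.22 to 0.32 after it. A corrected value of this size need not be a difference between mice. Levels below are log2 intensities after quantile normalization over the 3 arrays of a kind, and differences are log2 differences of these levels. Measured below means that the level of a probe, averaged over the mice, was in the upper 50% of its array kind. A probe high in a single mouse could pass for that reason. The 6 hepatocyte markers with a probe lay from the 66.8th (Fga) to the 99.95th (Alb) percentile of their arrays, with Apoa1 at the 99.3rd. Markers of other cells were also bright, such as Tfrc of the erythroid list at the 99.88th. Because whole liver was used, fewer cells of a type and less RNA per cell cannot be told apart.

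Nuclear receptors are transcription factors that bind hormones, sterols, fatty acids or bile acids, or that act without a known ligand, and in liver they set lipid, bile acid and drug metabolism. The other families are mostly switched by signalling: insulin acts on FOXO proteins, cytokines and growth hormone on STAT proteins, interferons on IRF and STAT proteins, cyclic AMP on CREB, growth and stress kinases on FOS, JUN and ATF2, and unfolded protein in the endoplasmic reticulum on XBP1 and ATF6. Much of this control acts on the proteins, by phosphorylation, splicing or movement to the nucleus, and is not seen in transcript levels.

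Of the 57 genes, 29 had a measured probe (35 probes) and 28 did not. A single measured member, Xbp1, was at least 2-fold apart in any pair of mice. In the ad libitum mice, 174 against 17 days, 0 of 29 members were 2-fold apart, where 1.16% of all 3865 measured genes were. Between the calorie-restricted mouse and the 174-day ad libitum mouse 1 of 29 was, where 6.86% of all genes were (2.25% higher and 4.61% lower in the restricted mouse). Between the calorie-restricted mouse and the 17-day mouse 0 of 29 were, where 1.58% of all genes were. The members' counts are thus near the background. The median absolute difference of the members was 0.22 in the age, 0.41 in the diet and 0.29 in the third comparison, beside 0.21, 0.37 and 0.28 over all genes.

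**Figure D1:**
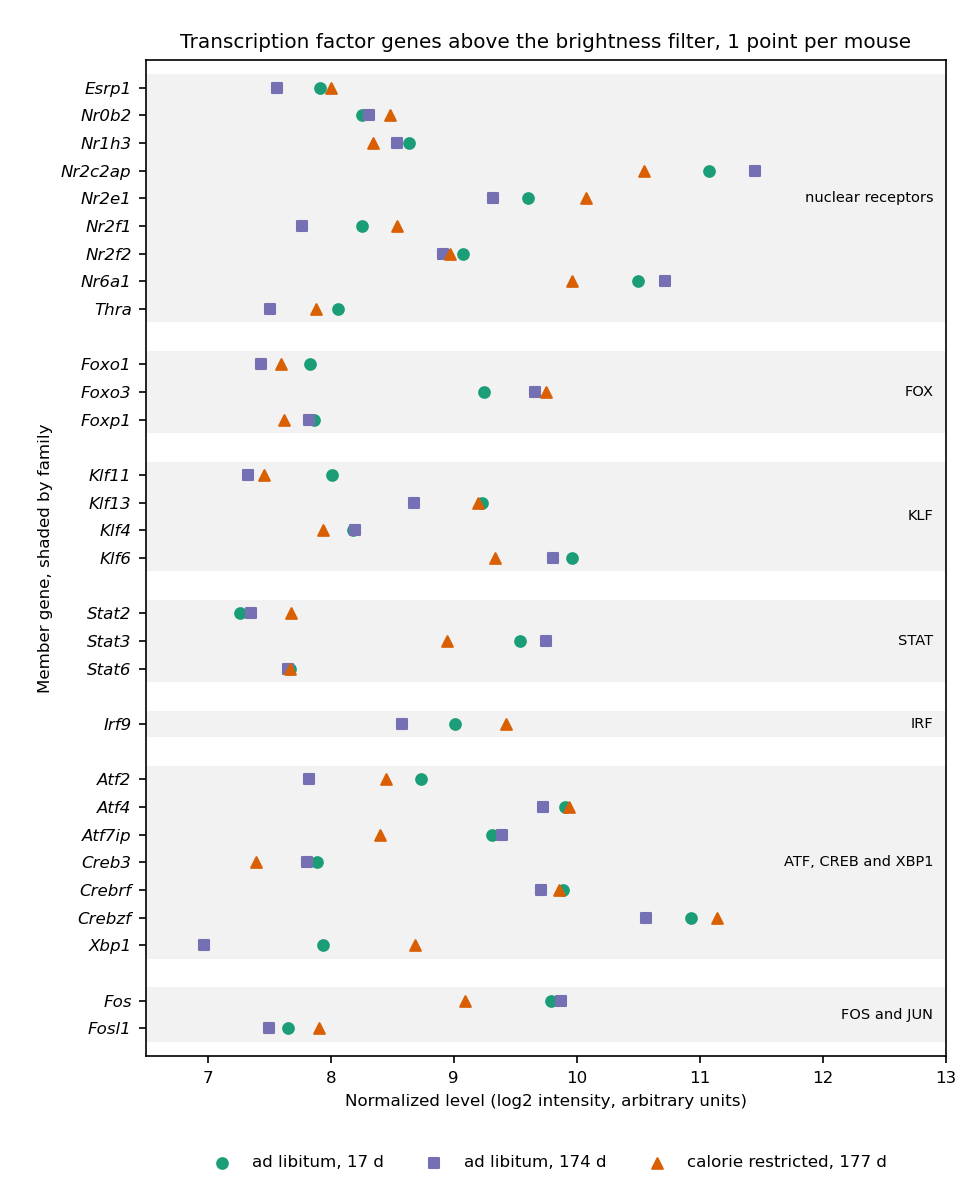
Normalized level (log2 intensity, x axis) of each measured member gene (y axis, shaded by family) in the 3 mice, 1 point per mouse, genes with more than 1 measured probe shown as their mean. Most genes have their 3 points within 1 log2 unit; Xbp1 spans from 6.97 in the 174-day mouse to 8.68 in the calorie-restricted mouse.

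The median member difference was -0.15 log2 in the age comparison, with 9 genes above 0 and 20 below, beside a median of -0.03 over all genes and 46.3% of all genes above 0. In the diet comparison it was 0.14, with 19 genes above 0 and 10 below, beside -0.04 and 47.2% over all genes. Both comparisons use the 174-day mouse, so a level that was low in that mouse alone enters them with opposite signs. The calorie-restricted mouse against the 17-day mouse, which leaves the 174-day mouse out of the difference, gave a median of -0.10, with 11 genes above 0 and 18 below, beside -0.09 and 41.1%. Centring each array on its median moved the median of all genes to 0.21 in the age and -0.31 in the diet comparison. The members' medians were then 0.01 and -0.15, or -0.19 and 0.16 relative to all genes, so that their sign against 0 turned with the scaling and their place relative to all genes did not. Under that scaling 92.5% of all genes called in the diet comparison were lower, against 67.2% after quantile normalization, and in the age comparison 18.7% against 37.8%. The 11 members above the 75th percentile of brightness had medians of 0.08 in the age and -0.47 in the diet comparison, beside -0.04 and -0.07 over all genes above that percentile.

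**Figure D2:**
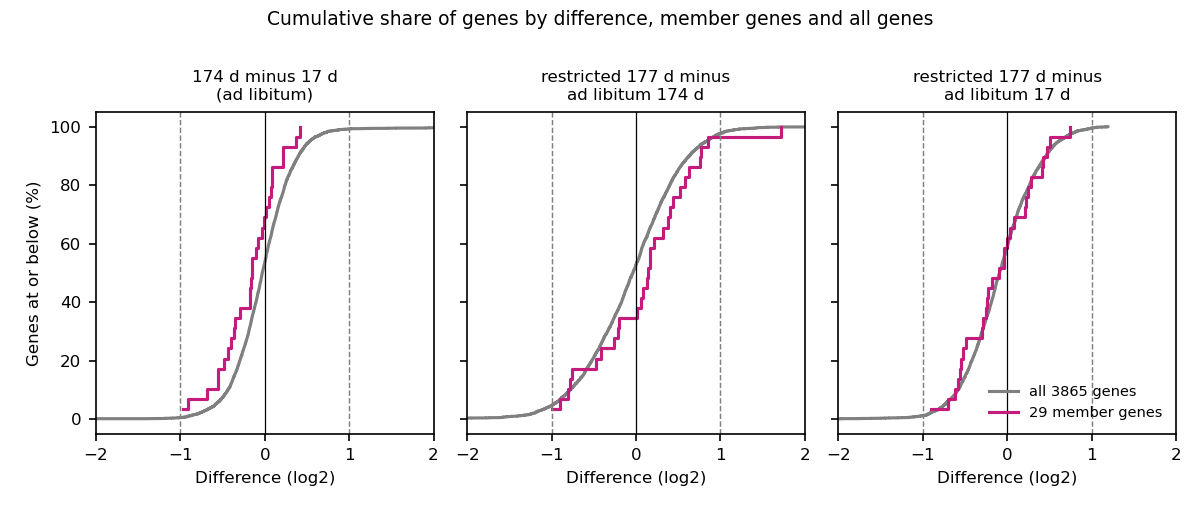
Cumulative share of genes (y axis, percent) at or below each log2 difference (x axis) for the 29 measured member genes and all 3865 measured genes, in the 3 pairs of mice; the dashed lines mark 2-fold. The member curve follows the curve of all genes, and lies to its left in the age comparison and mostly to its right in the diet comparison (medians -0.15 and 0.14 against -0.03 and -0.04).

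Under the nuclear receptor heading 9 of 18 genes were measured, among them 2 that encode no receptor, Nr2c2ap and Esrp1. The values of the 9 ran from -0.56 to 0.37 in the age and from -0.90 to 0.77 in the diet comparison. The extremes 0.37 and -0.90 were those of Nr2c2ap. Among the receptors proper the highest age value was 0.22 and the lowest diet value -0.76, both of Nr6a1. Nr1h3 encodes LXR alpha, the oxysterol receptor that drives sterol efflux and fatty acid synthesis. Its level was 8.64 in the 17-day, 8.54 in the 174-day and 8.34 in the calorie-restricted mouse. Nr0b2, the small heterodimer partner that dampens bile acid synthesis, was at 8.26, 8.31 and 8.48 in the same order. Both genes stayed within 0.30 log2 over the 3 mice, but the corrected diet differences were -0.50 for Nr1h3 and 0.32 for Nr0b2. Thra, the thyroid hormone receptor alpha gene, was at 8.06 in the 17-day, 7.50 in the 174-day and 7.88 in the calorie-restricted mouse, so that the 174-day mouse was lowest, at -0.56 in the age and 0.38 in the diet comparison.

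The COUP-TF genes and their relatives encode receptors without a firmly known physiological ligand. Nr2f1 (COUP-TFI) had 2 measured probes, which gave -0.48 and -0.48 in the age comparison but 1.11 and 0.43 in the diet comparison, for gene values of -0.48 and 0.77. After a correction for spot position these gene values were -0.14 and 0.18. Nr2f2 (COUP-TFII), which is known in liver from vessels and stromal cells, was at 9.07, 8.91 and 8.97 in the 17-day, 174-day and calorie-restricted mouse, with a diet difference of 0.06 (corrected 0.20), and its other probe lay at the floor in all 3. Nr2e1 (TLX), best known as a repressor in neural stem cells, was at 9.61, 9.32 and 10.07, highest in the calorie-restricted mouse by 0.47 and 0.76 (0.31 and 0.54 after the correction). Nr6a1, the germ cell nuclear factor gene, was at 10.50, 10.72 and 9.96, lowest in the calorie-restricted mouse, with differences of -0.54 and -0.76 from the other mice, and of -0.63 and -0.69 after the correction for position. These levels come from a probe at the 93.6th percentile of brightness. The other Nr6a1 probe, at the 9.85th percentile, read only 5.32, 5.70 and 5.27. It differed by -0.05 and -0.43 between the calorie-restricted and the other mice.

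The remaining 2 genes under this heading are receptors in name only. Nr2c2ap, which encodes a protein that binds the receptor TR4, was at 11.08, 11.45 and 10.55, lowest in the calorie-restricted mouse, with differences of -0.53 and -0.90 from the other mice, but after the correction for position the differences were 0.03 and -0.23. Esrp1 encodes an epithelial splicing regulator and shares no more than letters with the estrogen receptors. Its 2 measured probes gave -0.42 and -0.28 in the age and 0.53 and 0.35 in the diet comparison (corrected gene values -0.29 and 0.26).

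None of the measured genes of the lists on nuclear receptor action was 2-fold apart, before or after the correction. Of 18 coregulator genes 4 were measured, among them the coactivators Ppargc1b (0.87 in the diet comparison, corrected 0.31) and Ncoa1 (0.37, corrected 0.41), and the methyltransferase Carm1 (-0.38, corrected -0.12). The coactivator Ncoa2, whose probes were below the brightness filter, was at -2.29 in the age comparison. Of 20 PPAR alpha targets in fatty acid oxidation and storage 3 were measured, with diet values of 0.29 for Cpt2 (corrected -0.09), -0.39 for Acadl (corrected -0.11) and -0.33 for Slc25a20 (corrected -0.41). Of 17 LXR and FXR targets 2 were measured. The sterol exporter Abca1 was at 0.39 in the age and -0.60 in the diet comparison (corrected 0.38 and -0.44), and Srebf1, the regulator of fatty acid synthesis, was at -0.67 and 0.59, but at -0.17 and 0.01 after the correction for position.

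FOX proteins of the O class are held out of the nucleus by insulin signalling and act in fasting. Foxo3 was at 9.24 in the 17-day, 9.66 in the 174-day and 9.75 in the calorie-restricted mouse, so that both older mice lay above the young mouse, by 0.42 and 0.51. After the correction for position these differences were 0.12 and 0.05. Foxo1, whose protein drives gluconeogenic genes, had a measured probe on array A with -0.40 in the age and 0.17 in the diet comparison (corrected -0.81 and 0.27), and a dim probe on array B with 0.08 and -0.39. The probes differed in sign in both comparisons. Foxp1 had a measured probe on each array kind, which gave -0.46 and 0.38 in the age comparison and -0.20 and -0.22 in the diet comparison (corrected gene values -0.13 and 0.15). Of 14 FOXO targets 3 were measured, with Sesn1, a stress-induced inhibitor of mTORC1, at -0.92 in the diet comparison (corrected -0.19), Cited2 at -0.01 (corrected 0.56) and Fbxo32 at -0.06 (corrected -0.14).

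KLF proteins are zinc finger factors that bind GC-rich promoter elements. All 4 measured KLF genes were lower in the calorie-restricted than in the 17-day mouse. They were at -0.04 for Klf13, -0.24 for Klf4, -0.56 for Klf11 and -0.62 for Klf6. In this pair 41.1% of all measured genes were above 0, so that most genes were lower there too. After the correction for position Klf4 was at 0.05, Klf6 at -0.28, Klf11 at -0.55 and Klf13 at -0.19. In the age comparison Klf11 was at -0.68, Klf13 at -0.56, Klf6, an early response gene of injured liver, at -0.15 and Klf4 at 0.02. The corrected age values were -0.25, -0.38, 0.27 and -0.04 in the same order, so that Klf6 turned in sign. For Klf4 the 2 measured probes differed by -0.84 and 0.32 in the diet comparison. The Klf6 probes differed by -0.86 and -0.08 there. Corrected, the probes were at -0.19 and 0.37 for Klf4 and at -0.74 and -0.34 for Klf6. The gap of 1.16 between the Klf4 probes was wider than the range of the 4 gene values there, which ran from -0.47 to 0.52.

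STAT proteins carry cytokine and growth hormone signals from the membrane to the nucleus, and STAT3 drives the acute phase response of hepatocytes. The 2 measured Stat3 probes read 9.70 and 9.37 in the 17-day mouse, 9.99 and 9.52 in the 174-day mouse and 9.10 and 8.80 in the calorie-restricted mouse. Both probes were lowest in the calorie-restricted mouse, at -0.89 and -0.72 against the 174-day and -0.61 and -0.56 against the 17-day mouse. A dimmer Stat3 probe gave 0.09 and 0.07. After the correction for position the gene was at -0.33 and -0.46. Stat2, which encodes a mediator of interferon signals, was at 7.26, 7.35 and 7.67 in the 17-day, 174-day and calorie-restricted mouse, highest in the last. Stat6, the mediator of interleukin-4, was at 7.67, 7.65 and 7.66 and lay just above the brightness threshold, at percentile 50.4, with a corrected diet difference of 0.37.

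Irf9, which encodes a DNA-binding partner of STAT2, was the only measured IRF gene. Its level was 9.01 in the 17-day, 8.58 in the 174-day and 9.43 in the calorie-restricted mouse, a difference of 0.85 in the diet comparison and of 0.71 after the correction for position. Stat2 and Irf9 were thus both highest in the calorie-restricted mouse, by 0.41 and 0.42 over the 17-day mouse (corrected 0.41 and 0.32). Each rests on 1 probe, and that of Stat2 lay just above the brightness threshold, at percentile 50.7. In this pair the pooled SD between measured probes of the same gene was 0.40 over all genes with several. Of 24 interferon-induced genes 3 were measured, and their diet values were -0.48 for the RNA sensor Oas1a (corrected -0.06), -0.42 for Bst2 (corrected -0.48) and -0.02 for Ifi27 (corrected -0.17). Of 25 genes of JAK and STAT signalling, such as kinases, SOCS proteins and cytokine receptors, 10 were measured, with a median of 0.15 in the diet comparison (corrected 0.04), 5 above 0 and 5 below. Socs7 was at 0.81 there (corrected 0.52), Pias2 at 0.70 (corrected 0.08), Pias1 at 0.66 (corrected 0.80) and the kinase Jak2 at -0.44 (corrected -0.60). Of 18 acute phase genes 2 were measured, Cp at 0.39 (corrected 0.54) and Fga at -0.22 (corrected -0.04) in the diet comparison.

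The ATF and CREB proteins and XBP1 are leucine zipper factors of cyclic AMP signalling and cell stress. Xbp1, whose mRNA is spliced by the kinase and nuclease IRE1 when unfolded protein builds up, had the widest range of the measured members. Its single probe, on array B, read 492 in the 17-day, 37.1 in the 174-day and 641 in the calorie-restricted mouse in raw intensity, and 7.94, 6.97 and 8.68 after normalization. The calorie-restricted mouse was 1.71 log2 (3.28-fold) above the 174-day mouse and 0.74 above the 17-day mouse, and the 174-day mouse differed from the 17-day mouse by -0.97. After the correction for spot position these differences were 0.95, 0.13 and -0.82, so that the call at 2-fold was lost and the 174-day mouse remained the lowest. The probe cannot tell the spliced from the unspliced mRNA, and no other probe of Xbp1 was available as a check.

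Atf2, a target of stress kinases, was at 8.74 in the 17-day, 7.82 in the 174-day and 8.45 in the calorie-restricted mouse, lowest in the 174-day mouse, at -0.91 in the age and 0.63 in the diet comparison (-0.52 and 0.47 after the correction). Atf4, the translated effector of the integrated stress response, was at 9.90, 9.73 and 9.94, and Crebrf, a regulator of CREB3, at 9.89, 9.71 and 9.85. Neither gene differed by more than 0.21 between any pair of mice, but corrected Atf4 differed by 0.34 in the diet comparison and by 0.35 in the third, and corrected Crebrf by 0.23 and 0.21. Crebzf, a partner of ATF4 and CREB3, was at 10.93, 10.56 and 11.14, a diet difference of 0.58 (corrected 0.26). Creb3, a factor anchored in the endoplasmic reticulum membrane, was at 7.89, 7.81 and 7.40 on array A, and a dim probe on array B had the opposite diet difference (-0.41 and 0.43, corrected -0.69 and 0.36). Atf7ip, which encodes a chromatin protein that binds ATF7, was at 9.31, 9.39 and 8.40, lowest in the calorie-restricted mouse. Its differences from the 17-day and 174-day mouse were -0.91 and -0.99, but -0.47 and -0.34 after the correction for position. A dim Atf7ip probe differed by -0.15 and -0.67 from these mice (corrected -0.08 and -0.60).

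Of 25 genes of the unfolded protein and integrated stress responses 9 were measured, and none of these 9 was 2-fold apart, before or after the correction. Their median was -0.16 in the diet comparison (corrected -0.15), with 4 above 0 and 5 below. Trib3, an ATF4 target, was at -0.91 in the age and 0.64 in the diet comparison (corrected -0.55 and 0.20). The protein disulfide isomerase Pdia4 was at 0.50 and -0.16 (corrected 0.34 and -0.23). The chaperone Dnajb11, a known XBP1 target, was at -0.09 and -0.41 (corrected 0.21 and -0.34), and the lectin chaperone Canx at 0.23 and -0.35 (corrected 0.05 and -0.01). Among the 8 genes of the list with probes below the brightness filter, Asns, an ATF4 target, was at 2.27 in the age and -2.69 in the diet comparison, Calr at 1.02 and -1.14, and Syvn1 at -0.90 and 1.14.

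FOS and JUN proteins pair as AP-1, and their genes are switched on within minutes of growth or stress signals, also by handling of tissue. Fos was at 9.79 in the 17-day, 9.87 in the 174-day and 9.09 in the calorie-restricted mouse, lowest in the last, with differences of -0.70 and -0.78 from the other mice. After the correction for position these were -0.48 and -0.78. Fosl1, which encodes FRA-1, was at 7.65, 7.50 and 7.90, a diet difference of 0.40 (corrected 0.08). Of 17 other immediate early genes 5 were measured, with 3 above 0 and 2 below in the diet comparison. Nfkbia was at 0.64 there (corrected 0.41), Myc at 0.16 (corrected 0.10) and Atp2b1 at -0.51 (corrected -0.58). Gadd45g was at -0.60 in the age comparison, but at -0.01 after the correction. Of 24 genes of cyclic AMP and MAP kinase enzymes that act on CREB and AP-1 proteins 11 were measured. Their median was 0.21 in the age comparison, with 9 above 0 and 2 below, and -0.42 in the diet comparison, with 3 above 0 and 8 below. Over all measured genes the medians were -0.03 and -0.04, with 46.3% and 47.2% above 0. After the correction the medians of the 11 were 0.01, with 6 above 0 and 5 below, and -0.28, with 3 above 0 and 8 below. Among the kinases, Mapk8 (JNK1) was at -0.98 in the diet comparison (corrected -0.59), Mapk14 (p38 alpha) at -0.83 (corrected -0.69) and Rps6ka3 at -0.70 (corrected -0.46). Mapk8 lay just above the brightness threshold, at percentile 50.2. Mapk9 (JNK2) was at 0.67 (corrected 0.79), and at 1.05 in the calorie-restricted against the 17-day mouse (corrected 0.69).

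**Figure D3:**
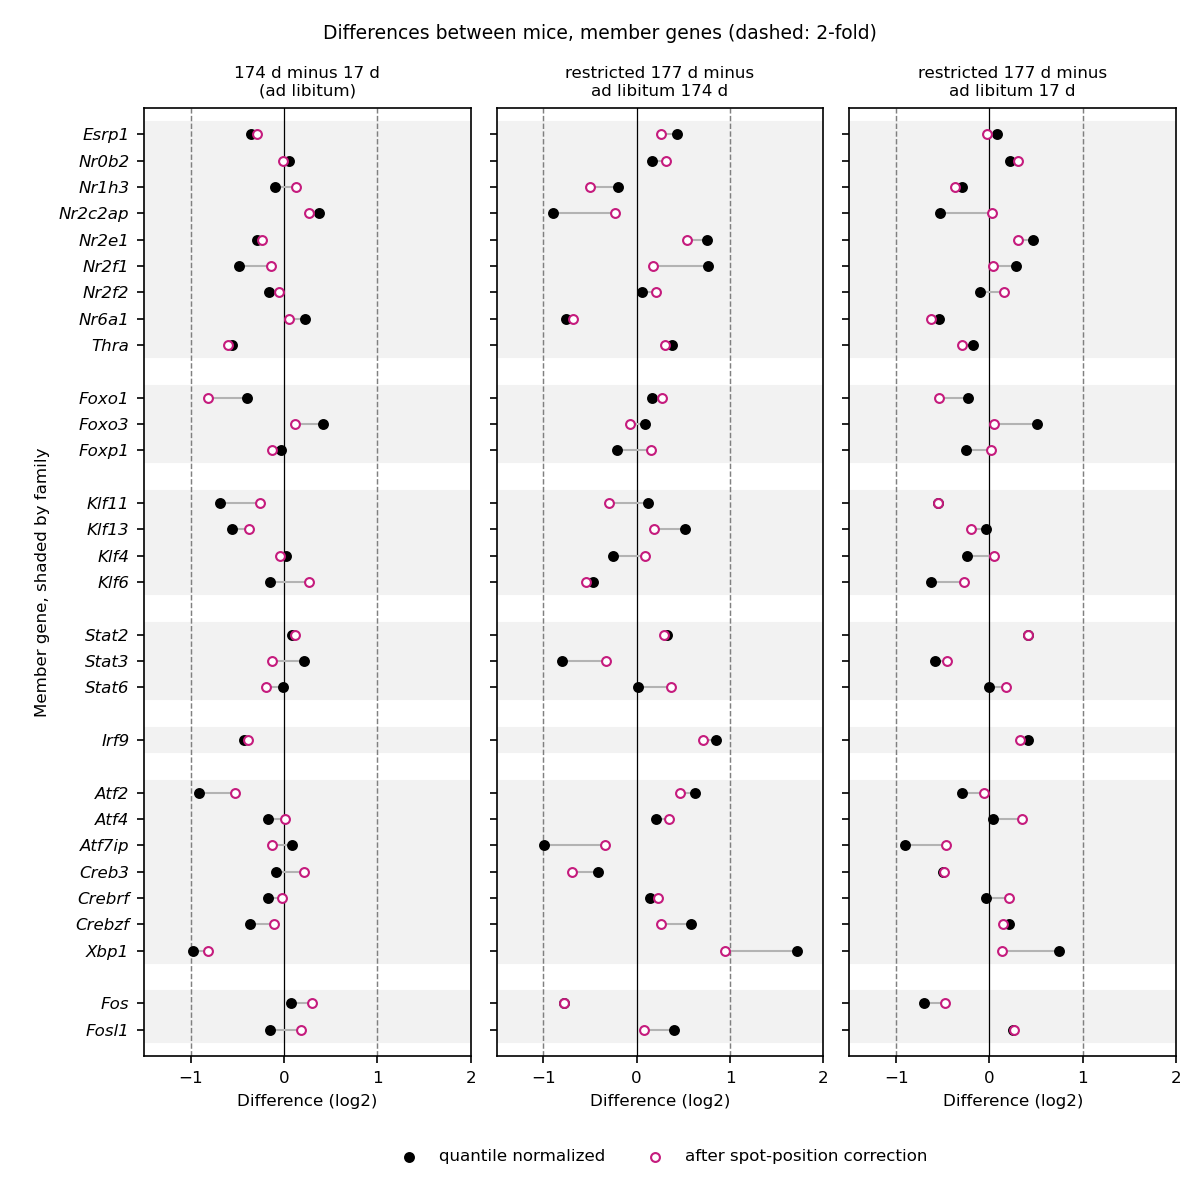
Log2 differences (x axis) of the 29 measured member genes (y axis, shaded by family) in the 3 pairs of mice, as quantile normalized (filled) and after the spot-position correction (open), joined by a line; dashed lines mark 2-fold. Xbp1 in the diet comparison is the only filled point beyond a dashed line, and its open point lies at 0.95.

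In 5 of 29 members (17.2%) the calorie-restricted mouse lay at least 0.5 log2 below both ad libitum mice, beside 11.0% of all genes. This size was chosen after the values were seen. The 5 were Fos, Nr6a1 and Stat3, and also Atf7ip and Nr2c2ap, which encode no factor of the family named. After the correction for position the same held for 1 of 29, Nr6a1, and for 4.14% of all genes. The dimmer probes of Atf7ip, Nr6a1 and Stat3 did not show this size against both ad libitum mice, before or after the correction. Xbp1 alone had the calorie-restricted mouse above both by that size (5.85% of all genes), and 0 of 29 did after the correction (2.58%). Atf2, Klf13 and Xbp1 had the 174-day mouse below both others (10.3% of members, beside 4.45% of all genes). After the correction Xbp1 alone did (3.45%, beside 2.4%). The members were 0 of 29 with the 174-day mouse above both others, where 4.29% of all genes were, and 0 of 29 after the correction (2.56%).

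The promoters of Xbp1, the only measured member 2-fold apart, and of 3 members that were lowest in the calorie-restricted mouse are given as the 250 bases before the annotated start, 5′ to 3′ on the gene's strand, from RefSeq on GRCm38.p6. Capitals mark letters that match a motif of the families described here: the CRE core TGACG, the nuclear receptor core AGGTCA, the C/EBP motif TTGCNNAA or the GC box GGGCGG bound by KLF and SP proteins, on either strand. They were chosen after the values were seen, and show which members' motifs these regulators carry themselves. Of Nr6a1, which has 2 annotated starts, the start with matches is given. The 250 bases before its other start held no match.
Xbp1, chr11:5520391-5520640, plus strand: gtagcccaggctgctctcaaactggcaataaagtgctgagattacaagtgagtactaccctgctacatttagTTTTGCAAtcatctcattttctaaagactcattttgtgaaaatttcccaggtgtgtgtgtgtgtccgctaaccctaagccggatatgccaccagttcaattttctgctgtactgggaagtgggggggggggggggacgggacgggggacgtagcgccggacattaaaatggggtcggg
Stat3, chr11:100939541-100939790, minus strand: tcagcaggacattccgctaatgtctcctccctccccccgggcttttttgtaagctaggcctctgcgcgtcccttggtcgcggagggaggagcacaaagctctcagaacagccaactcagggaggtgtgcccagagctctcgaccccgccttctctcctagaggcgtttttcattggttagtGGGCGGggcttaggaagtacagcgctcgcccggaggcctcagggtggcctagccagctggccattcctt
Fos, chr12:85473640-85473889, plus strand: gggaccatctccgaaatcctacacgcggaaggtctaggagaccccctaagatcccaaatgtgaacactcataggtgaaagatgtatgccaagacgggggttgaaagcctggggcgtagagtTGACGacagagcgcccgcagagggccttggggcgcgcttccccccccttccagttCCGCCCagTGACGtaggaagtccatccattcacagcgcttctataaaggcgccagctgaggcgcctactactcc
Nr6a1, chr2:38784516-38784765, minus strand: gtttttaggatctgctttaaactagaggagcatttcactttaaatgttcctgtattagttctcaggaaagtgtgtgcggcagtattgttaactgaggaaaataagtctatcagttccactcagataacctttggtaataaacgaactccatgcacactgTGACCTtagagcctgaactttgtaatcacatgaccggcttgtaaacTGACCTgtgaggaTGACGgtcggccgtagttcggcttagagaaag

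In Fos the CRE core ended 62 and 125 bases before the start, with a GC box that ended 69 bases before it. In Nr6a1 the nuclear receptor core, read on the other strand, ended 40 and 86 bases before the start, and a CRE core 28. The Xbp1 window held a C/EBP match that ended 171 bases before the start, and the Stat3 window a GC box that ended 64 bases before it. A match is a string of letters and not a measured binding site.

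Over the measured members, 26 of 29 genes matched a RefSeq promoter, with 32 starts. Esrp1, Fosl1 and Thra did not match. A GC box stood in 62.5% of these windows, beside 58.4% of the 4095 windows of all measured genes that matched and 32.7% of all 32851 windows in RefSeq. The CRE core stood in 34.4%, beside 26.5% and 17.8%, and the nuclear receptor core in 9.38%, beside 10.4% and 14.0%. The STAT motif TTCNNNGAA stood in 3.12% (Nr0b2), beside 6.23% and 7.02%, and the IRF motif (GAAA and GAAA parted by 2 bases) in 3.12% (Stat2), beside 2.47% and 2.98%. The C/EBP motif stood in 12.5%, beside 7.96% and 9.56%, and the FOX motif TGTTTAC in 3.12% (Nr2f1), beside 2.08% and 3.17%. The AP-1 motif TGANTCA stood in 0 of 32 windows, beside 4.32% and 6.75%. The letters CCACG, the core of elements of the unfolded protein response, stood in 43.8%, beside 42.1% and 28.3%. The full CRE TGACGTCA stood in a single window, that of Nr2e1. A CRE core lies within each full CRE, so these counts overlap.

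How far probes of the same gene differed is the only error measure in these data. It covers clone and spot effects and leaves out the spread between animals. Of the members, 15 genes had 2 or more probes and 6 had 2 or more measured ones: Esrp1, Foxp1, Klf4, Klf6, Nr2f1 and Stat3. Between measured probes of these 6 genes the pooled SD of the difference was 0.27 log2 in the age, 0.46 in the diet and 0.45 in the calorie-restricted against 17-day comparison, beside 0.45, 0.58 and 0.40 over the 557 genes with 2 or more measured probes. The 2 measured probes of Esrp1, Klf6 and Stat3 had the same sign in every pair of mice, whereas the probes of Klf4 differed in sign in every pair.

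**Figure D4:**
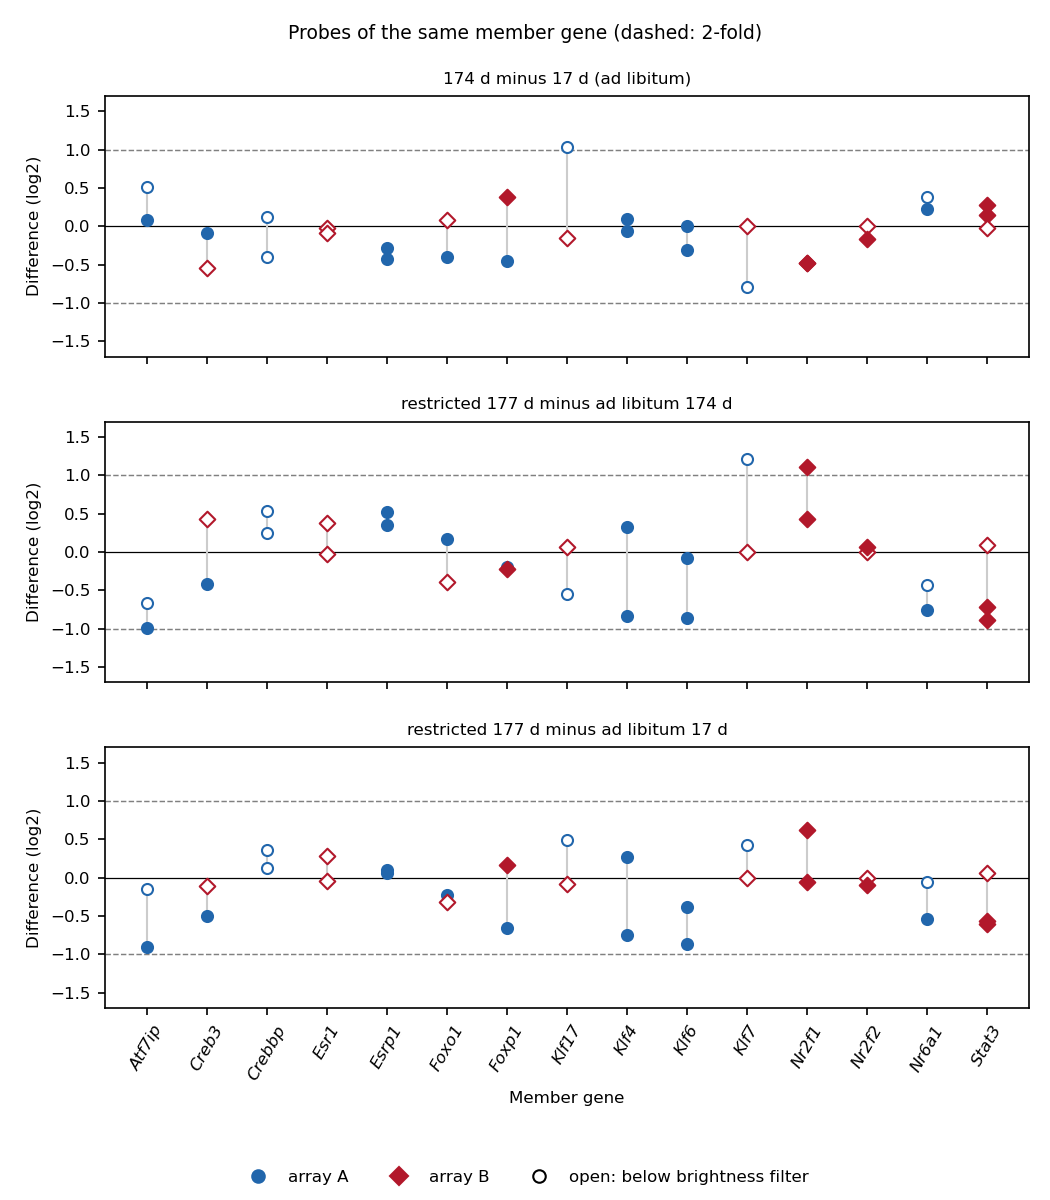
Log2 differences (y axis) of each probe of the 15 member genes with 2 or more probes (x axis), for the 3 pairs of mice from top to bottom; circles are array A, diamonds array B, open symbols lie below the brightness filter. Probes of the same gene are joined by a line, which reaches 1.16 log2 for Klf4 and 1.21 for Klf7 in the diet comparison.

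The 28 genes without a measured probe included Ppara, the fatty acid receptor of fasting liver, Nr3c1, the glucocorticoid receptor, Esr1, Rora, Rarb, Rxrb, Nr1d2, Nr4a2 and Nr5a1 among the receptors. They also included Cebpg, Foxa1, Foxp2, Klf5, Klf7, Klf9, Klf17, Irf1, Irf3 and Irf8. Further ones were Atf3, Atf6, Creb1, Creb3l2, Fosl2 and Jun, and also Cebpzos, Irf2bpl and Crebbp, which encode no factor of the family named. All 28 lay below the chosen brightness threshold, some of them closely: an Esr1 probe was at percentile 49.7 and the Foxp2 probe, with a diet difference of 0.98, at 48.1. Over the 38 member probes below the threshold, differences ran from -0.79 to 1.38 in the age, from -1.48 to 1.21 in the diet and from -1.005 to 0.63 in the calorie-restricted against 17-day comparison. With every probe used, 1 of 57 members was 2-fold apart in the age comparison (3.22% of all 7151 genes), 2 in the diet comparison (7.44%) and 1 in the third (1.13%).

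Jun, the partner of FOS, was the farthest of these. Its probe, at the 11.7th percentile of brightness, read 75.5 in the 17-day, 19.1 in the 174-day and 71.4 in the calorie-restricted mouse, where the floor of the array was 62.9, 5.98 and 63.4. The normalized differences were 1.38 in the age and -1.48 in the diet comparison. Irf8, a factor of macrophages, was at -1.005 in the calorie-restricted against the 17-day mouse (-0.85 after the correction for position), with raw readings of 312, 23.7 and 162. Of 16 macrophage and Kupffer cell markers 5 had a probe, and their summed level was 11.99, 11.79 and 11.97 log2 in the 17-day, 174-day and calorie-restricted mouse. Their part in the Irf8 value was not tested. Single probes of Klf17 (1.04 in the age comparison) and Klf7 (1.21 in the diet comparison) were also 2-fold apart, while the other Klf17 probe was at -0.15 and the other Klf7 probe lay at the floor in all 3 mice. Ppara was at -0.60 in the age and 0.51 in the diet comparison, on a probe at the 9.32nd percentile of brightness.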

How the data were processed

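Total RNA of 3 livers was measured on 2 array kinds of 8448 spots each. From their range, the deposited values were taken as linear intensity in arbitrary units. How the authors derived each intensity, and whether background was subtracted, is not given in the sources used here, which bears most on dim spots. Every value column could be tied to a mouse. GEO's platform annotation named the probes: of 16896 spots, 9663 had 1 symbol, 436 several and 6797 none there. All 57 member genes matched RefSeq gene names (GRCm38.p6) by gene number, and 0 symbols changed. No array coordinates were used.

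Values under the 5th percentile of an array were set to it, then came log2 and quantile normalization within each array kind. The difference of a gene is the median over its measured probes on both kinds. Apart means at least 1 log2, or 2-fold. For the spot-position correction, spots in file order were split into 16 runs of 528, and the median deviation per run, then per position within runs, was subtracted. That length gave the highest correlation between the differences of spots that far apart (0.33 and 0.40). The printed layout itself is unknown here. The procedure was run on simulated arrays with planted differences and a regular position pattern. Their noise was independent between spots, so that the run does not measure the error in these arrays. Members, gene lists, families and alternatives were chosen with earlier results of these data known. Named were members 2-fold apart, the 5 highest and 5 lowest of each pair, those with several measured probes, known liver regulators and up to 4 genes of each list. Further members and list genes, the 0.5 log2 size and the printed promoters were chosen after the values were seen. Marker lists for lymphocytes, erythroid, endothelial, stellate and bile duct cells were also computed, and their summed levels are in the closing section. Tools were pandas 2.3.3, numpy 2.4.6 and statsmodels 0.14.6 under Python 3.11.15.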

Additional observations from a re-analysis of the deposited data

How the results depend on the processing

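No paired analysis was possible because each group is 1 mouse, and no mouse could be left out for the same reason. The 8 alternatives were median centring, loess of the difference on level (span 0.3), no brightness filter, a filter at the 75th percentile, the spot-position correction, leaving out spots of exactly 10, the brightest probe of a gene and a floor at the 25th percentile. Of 639 values of the 29 measured members under them, 623 moved by less than the pooled SD between probes of the same gene, and 16 by more. Of the 16, 8 moved with the position correction, 5 with median centring and 3 with the brightest probe. The changes of filter and floor and leaving out spots of exactly 10 left genes with a single probe as they were or dropped them. The 75th percentile filter kept 11 of the 29 members, and leaving out spots of exactly 10 kept 28. Values of dropped genes are not among the 639. For both reasons the 623 overstate how stable the values are. The only called value, Xbp1 in the diet comparison, kept its sign. Members with the same sign in every setting run were 16 of 29 in the age, 19 in the diet and 20 in the third comparison.

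In the age comparison the count of members at least 2-fold apart was 0, and 1 with median centring (Xbp1, -1.003; 1.94% of all genes) and 1 without the brightness filter (Jun; 3.22%). In the diet comparison it was 1, and 6 with median centring (Xbp1 higher; Atf7ip, Fos, Nr2c2ap, Nr6a1 and Stat3 lower), where 17.1% of all genes were, 2 with loess (7.57%), 2 without the filter (7.44%), 2 with the brightest probe (7.25%), and 0 both after the position correction (2.95%) and with the 75th percentile filter (4.57%), where Xbp1 was not measured. In the third comparison it was 0, and 1 without the filter (Irf8; 1.13%). Why the counts moved with scaling and position was not tested. Of 73 member probes, 38 lay below the brightness filter.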

Other observations

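Markers of other liver cells gave the setting of the member values. Summed levels in the 17-day, 174-day and calorie-restricted mouse were 14.06, 13.95 and 14.08 log2 for the 6 erythroid genes with a probe, and 12.73, 12.64 and 12.58 for the 7 stellate cell and fibroblast genes. The 3 endothelial genes summed to 10.48, 10.24 and 10.11, the 3 bile duct genes to 9.17, 9.30 and 8.90, and the lymphocyte gene Ighm, the only marker of its list with a probe, was at 7.26, 6.84 and 7.52. The 6 hepatocyte genes summed to 14.58, 14.38 and 15.03, and Alb alone differed by 1.18 in the diet comparison (0.55 after the correction for position). Taken gene by gene, the 6 had a diet median of -0.01, with 2 above 0 and 4 below. After the correction the median was 0.12, with 3 above 0 and 3 below. The 2 measured bile duct markers differed in sign in the diet comparison, with Epcam at -0.72 (corrected -0.86) and Krt7 at 0.07 (corrected 0.16). The part of these cell types in the member values was not tested.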
